A study of Homo sapiens with 12 samples.

Results

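EA.hy926 cells with and without low-density lipoprotein (LDL) were compared in 6 of the 12 libraries deposited, 3 for each condition. EA.hy926 is a hybrid human line made by fusing endothelial cells of the umbilical vein (HUVEC) with the lung carcinoma line A549, so it keeps traits of both parents and is a single line, not a set of donors. The cells had been grown in DMEM with serum. Control dishes then stood for 24 h in DMEM with penicillin and streptomycin and with no serum. The LDL dishes had the same medium with native LDL at 100 µg/mL, isolated from donors with cardiovascular disease. No vehicle for the LDL is named, and neither is any pooling of its donors. Total RNA was sequenced in bulk. Genes were included by level: of 20117 genes in the table, 14015 had a mean of at least 10 normalised counts in either group and were not 0 in all 3 libraries of a group. CORO1A lay just inside the limit, at a mean of 10.01 with LDL, and LGALS9 just outside, at 9.96.

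LDL carries cholesterol esters through the blood, and cells take it up by endocytosis. Cholesterol freed in the lysosome lowers the activity of SREBP factors, which switch on the genes of sterol synthesis. Endothelial cells also answer inflammatory signals through NF-kB, a family of transcription factors held in the cytosol by inhibitors such as NFKBIA, whose targets include chemokines and adhesion molecules that recruit leukocytes. Oxidative stress acts through another factor, NRF2, which switches on enzymes of haem breakdown, iron storage and glutathione synthesis.

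Recovered depth was 6.88 to 7.97 M reads in the control libraries and 4.32 to 7.78 M in the LDL libraries, with LDL replicate 2 the shallowest, and 1 read counted as 1.02 to 1.91 normalised counts. RN7SL1, a non-coding RNA of the machinery that targets secreted proteins, took 12.7%, 8.90% and 10.5% of control reads and 9.52%, 10.2% and 14.4% of LDL reads, ranges that overlap. The first principal component (33.6% of the variance) set control replicate 1 and LDL replicate 3, the libraries with the most RN7SL1, apart from the others, and the second (26.3%) parted LDL from control. The endothelial label was met: 21 of 23 endothelial identity genes had a mean of at least 10 in control libraries. Their summed level was 33637 to 34063 normalised counts in control and 31708 to 33322 with LDL, ranges that do not overlap. Macrophage markers were mostly listed at 0, as were 14 of 18 in all 6 libraries, among them CD14, CSF1R, ITGAM and PTPRC. Whether such zeros are counts or the mark of a filter is not stated in the sources used here. The summed level of macrophage markers was 361 to 455 in control and 382 to 461 with LDL. Lung epithelial markers, listed for the A549 parent, summed to 10277 to 11153 in control and 13020 to 13193 with LDL, again without overlap. Of the 5 that were tested, limma and edgeR called 0, and DESeq2 called 1 higher. Keratins made up most of the sum, with KRT7 at a mean of 5457 in control and 7136 with LDL (limma adjusted p = 0.177). KRT18 was at 4154 and 4634, KRT8 at 1158 and 1232, MUC1 at 49.6 and 61.2, and CLDN4 at 19.9 and 17.8. Listed at 0 in all 6 libraries were 5 of 11 lung epithelial markers (KRT19, ELF3 and AKR1C1 among them). The part of these markers in the results was not tested. In bulk RNA, fewer cells of a kind and less RNA per cell cannot be told apart.

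The 5 promoters below are shown because these genes rose with LDL and hold the κB-like motif GGAANTTCC, where N is any base, within the 250 bases before the gene's start. Sequences are from RefSeq on GRCh38.p14, read 5′ to 3′ on the gene's strand, and capitals mark the motif. It reads the same on both strands, so each match is counted once.
CXCL8 (chr4:73740319-73740568, plus strand): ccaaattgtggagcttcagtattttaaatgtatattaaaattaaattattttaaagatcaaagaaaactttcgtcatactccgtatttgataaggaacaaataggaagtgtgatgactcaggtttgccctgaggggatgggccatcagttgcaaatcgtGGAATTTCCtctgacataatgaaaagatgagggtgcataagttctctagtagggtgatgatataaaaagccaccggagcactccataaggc
CXCL1 (chr4:73869143-73869392, plus strand): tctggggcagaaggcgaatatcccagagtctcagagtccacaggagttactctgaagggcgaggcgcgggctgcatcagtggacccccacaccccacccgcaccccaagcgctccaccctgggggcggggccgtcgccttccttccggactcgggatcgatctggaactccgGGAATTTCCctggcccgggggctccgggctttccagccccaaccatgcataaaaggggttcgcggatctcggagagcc
CXCL2 (chr4:74099196-74099445, minus strand): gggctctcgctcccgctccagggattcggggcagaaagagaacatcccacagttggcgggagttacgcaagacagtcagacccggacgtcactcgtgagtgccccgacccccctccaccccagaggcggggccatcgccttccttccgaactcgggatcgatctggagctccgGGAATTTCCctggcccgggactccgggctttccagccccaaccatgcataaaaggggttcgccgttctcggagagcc
ICAM1 (chr19:10270870-10271119, plus strand): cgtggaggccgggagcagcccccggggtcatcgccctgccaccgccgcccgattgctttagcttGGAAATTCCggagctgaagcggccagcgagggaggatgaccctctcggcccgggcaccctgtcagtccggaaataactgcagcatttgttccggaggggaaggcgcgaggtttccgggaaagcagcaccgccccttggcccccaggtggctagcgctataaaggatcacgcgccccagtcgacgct
NFKBIA (chr14:35404750-35404999, minus strand): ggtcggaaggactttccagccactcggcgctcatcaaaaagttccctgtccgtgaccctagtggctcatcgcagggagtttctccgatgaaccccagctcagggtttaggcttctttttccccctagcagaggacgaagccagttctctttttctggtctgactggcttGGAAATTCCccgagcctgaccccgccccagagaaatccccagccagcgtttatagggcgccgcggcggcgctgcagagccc
Matches began 77 to 91 bases before the start in CXCL8, CXCL1, CXCL2 and NFKBIA, and 186 bases before it in ICAM1. The chemokine promoters carry GGAATTTCC and the other pair GGAAATTCC. Of 35116 promoters in the table, 290 held the motif (0.826%), as did 90 of 10054 belonging to genes tested (0.895%). Of 10 NF-kB list members called higher and present in the table, 5 held it, and 2 of 9 uncalled members did. The motif was in 0 of 23 promoters of the other genes called higher and in 0 of 4 of those called lower. The list gathers NF-kB targets and was chosen with earlier results of these data known, so these counts describe and support nothing. The difference between called and uncalled members was not tested. TRAF1, BIRC3, TNFAIP3, TNFAIP2 and SOD2 had no match in this window. A match describes letters and does not show that a factor bound there.

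The comparison asked which transcripts differed after 24 h with LDL. Of the 14015 genes, 48 passed an adjusted p of 0.05 (limma on log2 of the normalised count plus 1), which is 0.342%. LDL libraries were higher for 41 genes (0.293%) and lower for 7 (0.0499%). Among the higher genes were NF-kB targets, stress enzymes of haem and glutathione metabolism and histone genes. Among the lower ones were the desaturase SCD and both mitochondrial ribosomal RNAs. Rises of at least 1 on the log2 scale numbered 12, and falls of that size 3. All 48 had no overlap between LDL and control libraries, as did 2142 of all genes tested (15.3%). The median change over all genes was 0.0031, and the smallest called change was 0.52 in size. The interval of the change lay within -1 to 1 for 82.0% of genes tested. Leaving out single libraries moved the counts: without control replicate 2 there were 16 higher and 2 lower, without control replicate 3 there were 24 and 5, without LDL replicate 1 there were 22 and 5, and without LDL replicate 2 there were 15 and 3. Without LDL replicate 3 they rose to 92 and 17, and without control replicate 1 they were 36 and 5. CXCL1, CXCL8, HMOX1, ICAM1, RELB and TRAF1 passed in every setting that tested them.

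**Figure D1:**
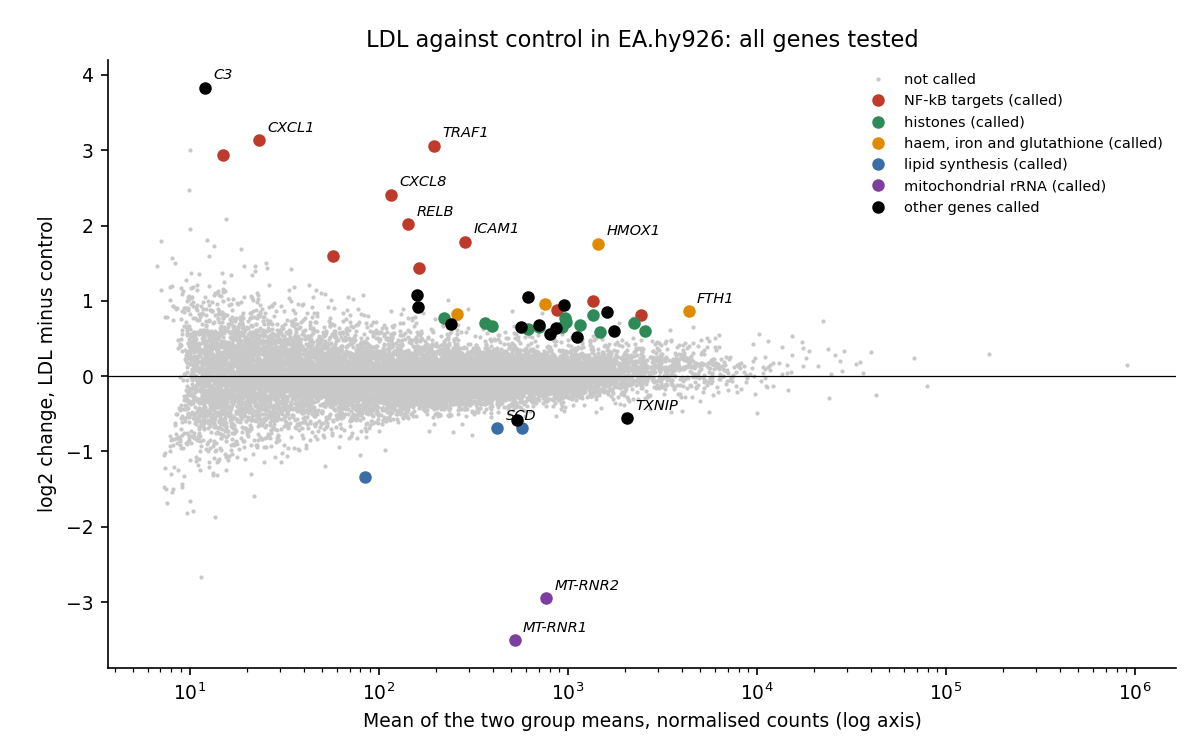
Log2 change (LDL minus control) against the mean of both group means in normalised counts (log axis) for the 14015 genes tested, with the 48 called genes coloured by role. The labelled points TRAF1, CXCL8, RELB, ICAM1 and HMOX1 lie between 1.76 and 3.06, and both mitochondrial ribosomal RNAs lie at -2.95 and -3.50.

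Of 25 tested genes on the list of NF-kB targets and inflammatory cytokines, 11 rose and 0 fell, where 0.293% of all genes rose. The list's median log2 change was 0.81, against 0.0031 for all genes, and 18 of the 25 had LDL libraries all above control, against 7.94% of all genes. Among those that rose were pathway members and its inhibitors (TRAF1, RELB, NFKBIA, TNFAIP3, BIRC3), chemokines (CXCL8, CXCL1, CXCL2), the adhesion molecule ICAM1 and SOD2. Without control replicate 2, or without LDL replicate 2, 7 of the members passed.

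TRAF1, an adaptor at tumour necrosis factor receptors (ENSG00000056558.11, chromosome 9, 120902393 to 120929173, minus strand, GRCh38), was at 39.8, 42.8 and 40.6 normalised counts in control replicates 1 to 3 and 355, 367 and 328 in LDL replicates 1 to 3. No LDL library came near a control library. Its level went from 41.0 ± 1.55 to 349.9 ± 19.8 (SD, n = 3), a log2 change of 3.06 (95% interval 2.72 to 3.40; adjusted p = 1.24e-07). RELB, an NF-kB subunit of the non-canonical arm, held 52.0, 70.2 and 47.5 normalised counts in control and 225, 262 and 204 with LDL, with a log2 change of 2.02 (adjusted p = 8.2e-05). NFKBIA, the inhibitor that NF-kB itself induces, was already abundant at 1474, 1904 and 1949 normalised counts in the control libraries and 3722, 2957 and 2670.4 in the LDL libraries. Its rise was smaller, at 0.81 (adjusted p = 0.017), and the groups did not overlap. TNFAIP3, also called A20, an enzyme that edits ubiquitin chains and damps the pathway, stood at 41.8, 28.5 and 17.4 normalised counts in control and 80.8, 78.3 and 97.4 with LDL. Its log2 change was 1.59 (95% interval 0.97 to 2.22; adjusted p = 0.0271), and the control libraries were spread widely. BIRC3, a ubiquitin ligase of the same receptor complexes, rested on 7 control reads and 62 LDL reads. Scaled for depth this is a ratio of 11.2, with an exact 95% interval for counting error of 5.14 to 29.1. TNFAIP2, a protein of membrane protrusions, rose by 0.88 from 618 ± 119 to 1127 ± 163 (adjusted p = 0.0159).

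CXCL8, the neutrophil chemokine interleukin-8, was at 49.99, 34.0 and 26.7 normalised counts in control and 189, 178 and 216 with LDL. The lowest LDL library exceeded the highest control library, and the log2 change was 2.41 (95% interval 1.92 to 2.90; adjusted p = 8.2e-05). CXCL2, which also draws neutrophils, held 114, 93.2 and 62.6 normalised counts in the control libraries and 269, 219.6 and 226 in the LDL libraries, a change of 1.43 (adjusted p = 0.00435). CXCL1 was scarce, with 11 control reads and 94 LDL reads, a ratio of 10.8 (exact interval 5.79 to 22.5). CXCL3 stood at 14.3, 8.77 and 11.6 normalised counts in control and 23.8, 17.2 and 24.6 with LDL and did not pass (adjusted p = 0.462). Reads common to the near-identical CXCL1, CXCL2 and CXCL3 may have been dropped or split in counting, so the sizes of their changes are less certain. ICAM1, to which leukocyte integrins bind, was at 116, 115 and 154 normalised counts in control and 465, 418 and 442 with LDL. It rose by 1.79 on the log2 scale (95% interval 1.47 to 2.10; adjusted p = 2.52e-05), with no overlap. ICAM1 was the sole call among 8 tested leukocyte adhesion molecules, whose median was -0.09. PECAM1, of endothelial junctions, was at 3482, 2867 and 2945 normalised counts in the control libraries and 1875, 2242 and 2820.5 in the LDL libraries (adjusted p = 0.28). VCAM1 did not meet the level rule. SOD2, the superoxide-scavenging enzyme of mitochondria, went from 911 ± 78.6 to 1813 ± 45.4 (log2 change 0.99; adjusted p = 0.000239).

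Other cytokine genes on the list did not pass. IL6 was at 29.6, 38.4 and 25.5 normalised counts in control and 80.8, 57.3 and 64.9 with LDL, groups that did not overlap (adjusted p = 0.0988). CCL2, which attracts monocytes, held 263, 261 and 261 normalised counts in control and 405, 346 and 394 with LDL (adjusted p = 0.103), and IL1A 220.4, 213 and 188 normalised counts in the control libraries and 291, 269 and 314 in the LDL libraries (adjusted p = 0.21). NFKB1, the gene of the p50 subunit, showed groups that overlap, at 277, 257 and 253 normalised counts in control and 230.4, 258 and 291 with LDL, and NFKB2 stood at 332, 353 and 347 normalised counts in control and 511, 514 and 421 with LDL (adjusted p = 0.168). C3, the central complement component, is not on the list and was named after its values were seen: it had 2 control reads and 52 LDL reads, a ratio of 33.0 (exact interval 8.68 to 279). Its gene overlaps GPR108 on the same strand by 649 bases. Of 29 tested interferon-induced genes, limma called 0 in either direction, with 2 higher and 1 lower at an unadjusted p under 0.05 and 0 by edgeR or DESeq2.

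**Figure D2:**
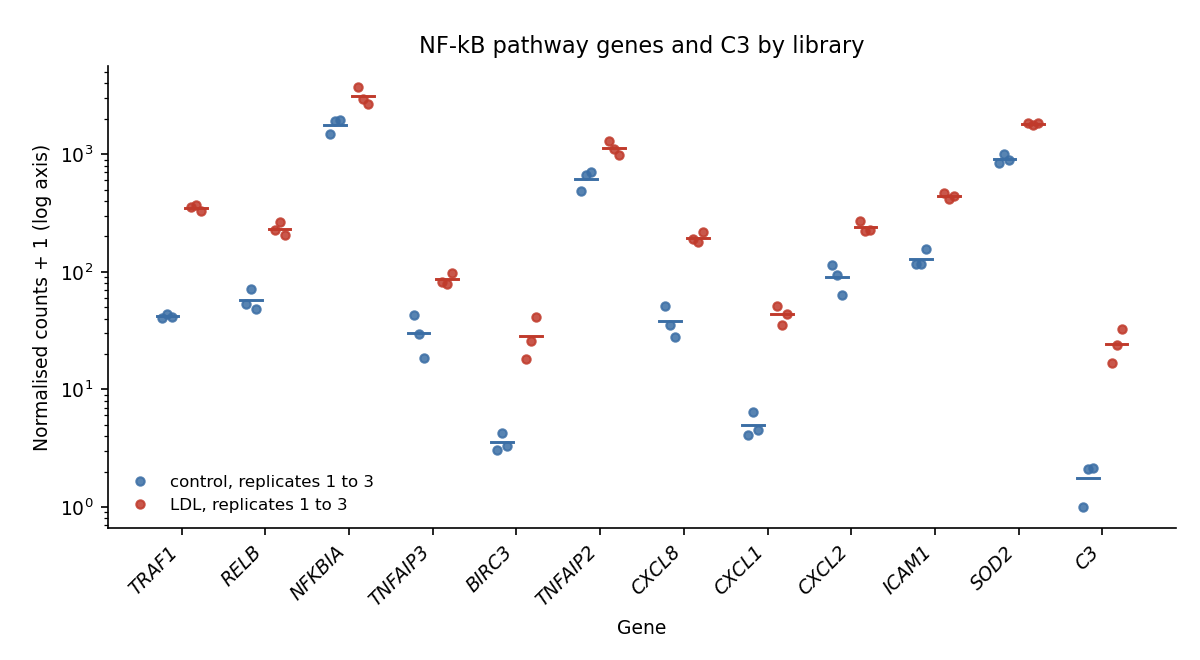
Normalised counts plus 1 (log axis) in each library for 11 NF-kB list members called higher and C3; points are the replicates, horizontal bars the group means. For every gene the LDL libraries lie above the control libraries, and TRAF1 shows tight groups while TNFAIP3 and C3 spread more.

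Genes of haem breakdown, iron storage and glutathione synthesis rose as well. On the list of the NRF2 pathway and metallothioneins, 4 of 22 tested genes rose and 0 fell, against 0.293% of all genes; 16 had LDL libraries all above control, against 7.94% of all genes, and the median was 0.33. HMOX1, which opens the haem ring (ENSG00000100292.18, chromosome 22, 35380361 to 35394214, plus strand), was at 661, 656 and 662 normalised counts in the control libraries and 2370.3, 2166 and 2178 in the LDL libraries. The replicates lay close together in each group, and the change was 1.76 (95% interval 1.54 to 1.97; adjusted p = 2.03e-07). FTH1, the heavy chain of the iron store ferritin, held 2921, 3367 and 2989 normalised counts in control and 5664, 5579 and 5619 with LDL, a change of 0.86 (adjusted p = 0.000689). FTL, the light chain, stood at 13118, 13413 and 11283 normalised counts in control and 18375, 18049 and 18179 with LDL and did not pass (adjusted p = 0.0818). BEST1, a channel gene, was called at 1.05 but overlaps FTH1 on the opposite strand by 5798 bases. Without a stated strand setting its reads cannot be told apart from those of FTH1. GCLM, the regulatory subunit of the enzyme that starts glutathione synthesis, was at 198, 188 and 176 normalised counts in the control libraries and 336, 311 and 353 in the LDL libraries (change 0.83; adjusted p = 0.0106). The catalytic subunit gene GCLC had overlapping groups, at 758, 794 and 659.8 normalised counts in control and 716, 886 and 763 with LDL (adjusted p = 0.817). OSGIN1, a stress-induced growth inhibitor, went from 513 ± 43.0 to 998 ± 132 (change 0.95; adjusted p = 0.00183). NQO1, a quinone reductase, stood at 4972, 4749 and 3922 normalised counts in control and 6419.7, 6192 and 6586 with LDL (adjusted p = 0.0919), and TXNRD1, thioredoxin reductase, at 16976, 16996 and 16181 normalised counts in the control libraries and 20586, 20572 and 22097 in the LDL libraries (adjusted p = 0.374). For both, every LDL library was above every control library without passing the test. The gene of NRF2 itself, NFE2L2, had overlapping groups at 720.2, 617 and 631 normalised counts in control and 523, 599.7 and 742 with LDL.

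**Figure D3:**
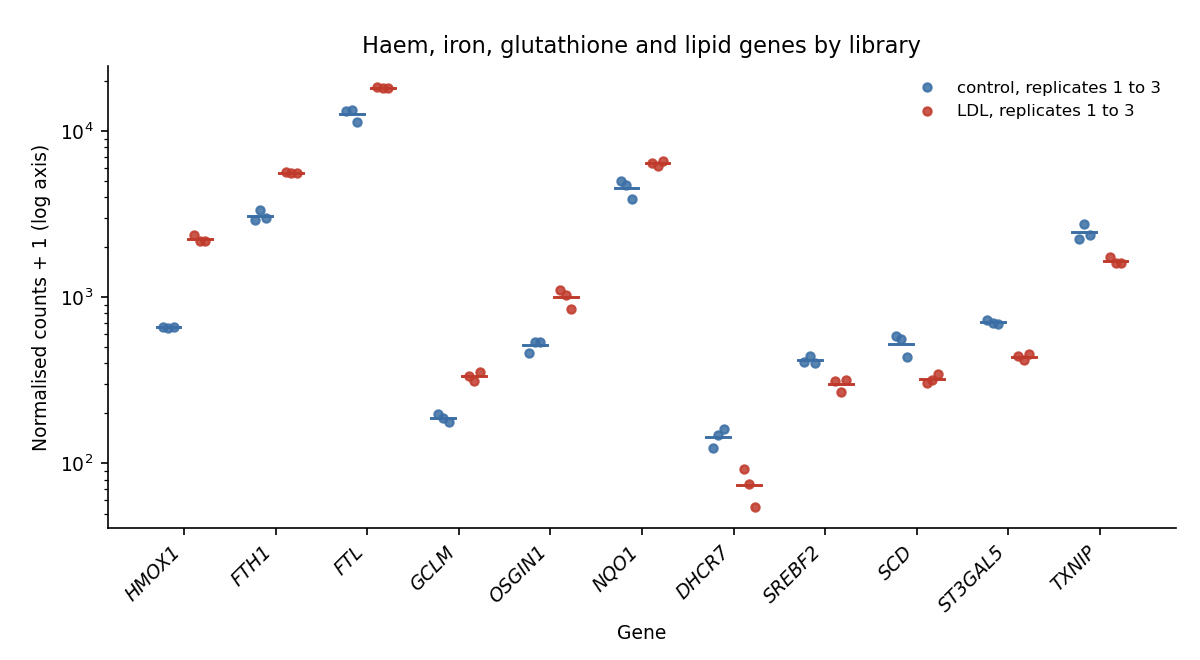
Normalised counts plus 1 (log axis) by library for haem, iron and glutathione genes on the left and lipid genes with TXNIP on the right; points are the replicates and bars the group means. HMOX1 and FTH1 are higher in all LDL libraries, SCD and ST3GAL5 are lower in all of them, and FTL, NQO1, DHCR7 and SREBF2 are shown although they did not pass.

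Few lipid genes passed the test. The 21 tested cholesterol synthesis enzymes had a median change of -0.03, with 9 above 0 and 12 below. DHCR7, a reductase of the last steps of cholesterol synthesis, held 122, 147 and 161 normalised counts in control and 91.4, 74.5 and 53.7 with LDL, groups that did not overlap (adjusted p = 0.0699). DHCR7 passed with DESeq2, with sample quality weights, with RN7SL1 level as a covariate and with genes listed at 0 included, but in no other setting. HMGCS1 and SQLE, which act earlier, had overlapping groups. HMGCS1, a synthase of the mevalonate pathway, was at 266, 179.9 and 227 normalised counts in the control libraries and 185, 179.5 and 186 in the LDL libraries, and its log2 change was -0.27 with an interval of -0.61 to 0.07. SQLE, the epoxidase, stood at 458, 468 and 391 normalised counts in control and 414, 382 and 391 with LDL (log2 change -0.15; interval -0.41 to 0.12).

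Genes of LDL uptake and SREBP control had a median change of 0.04 over 16 tested. SREBF2, the factor of sterol genes, held 408, 443 and 401 normalised counts in control and 311, 269 and 318 with LDL (adjusted p = 0.17), without overlap between groups. SREBF2 passed with all 12 libraries in the fit, with sample quality weights and with RN7SL1 level as a covariate, but in no other setting. INSIG1, which retains SREBP in the endoplasmic reticulum, had groups that overlap, at 324, 403 and 326 normalised counts in the control libraries and 425, 392 and 347 in the LDL libraries. The ubiquitin ligase MYLIP was at 167, 230.3 and 167 normalised counts in control and 213, 185 and 132 with LDL. Cholesterol exporters overlapped too: ABCG1 stood at 189, 240.2 and 278 normalised counts in control and 309, 246 and 227 with LDL and ABCA1 at 297, 339 and 337 normalised counts in the control libraries and 311, 296 and 309 in the LDL libraries. Of 13 tested scavenger and lipoprotein receptors, 4 had LDL libraries all below control, against 7.34% of all genes, and limma, edgeR and DESeq2 called 0 of them, with 1 higher and 1 lower at an unadjusted p under 0.05. Among 13 tested LXR targets and efflux genes limma, edgeR and DESeq2 called 0, and 0 had an unadjusted p under 0.05. SCD, which desaturates fatty acids, was the single call among 15 fatty acid genes, 12 of which had changes below 0 (median -0.14). It was at 583, 557 and 436 normalised counts in control and 306, 317 and 346 with LDL and fell by 0.69 (adjusted p = 0.0404). ST3GAL5, which makes the ganglioside GM3, held 728, 701 and 689 normalised counts in control and 441, 418 and 452 with LDL and fell by 0.69 (adjusted p = 0.0102). ANGPTL4, an inhibitor of lipoprotein lipase, was at 1265, 1399.5 and 1512 normalised counts in the control libraries and 2356, 2011 and 1828 in the LDL libraries (adjusted p = 0.0628). PLIN2 and PDK4 did not meet the level rule.

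Histone genes of the replication-dependent kind, whose transcripts usually end in a stem-loop and not in a poly(A) tail, mostly had higher values with LDL. By symbol, 54 were tested: 13 rose, 0 fell, 53 had changes above 0, and 40 had LDL libraries all above control. Of all genes tested, 0.293% rose and 7.94% had LDL libraries all above control. The list was drawn up after the values had been seen, so these counts describe and support nothing. Their median was 0.48, against 0.0031 for all genes. The calls fell in 6 of 9 H3 genes, 4 of 12 H2A genes and 3 of 17 H2B genes, with 0 of 11 H4 genes and 0 of 5 H1 genes past the threshold. Family medians were 0.63 for H3, 0.52 for H2A, 0.49 for H2B, 0.40 for H4 and 0.39 for H1. H3C7 (ENSG00000277775.2, chromosome 6, 26250195 to 26250605, minus strand) was at 1031, 986 and 939 normalised counts in control and 2018, 1536 and 1667 with LDL, the largest change among the histone genes at 0.81 (95% interval 0.56 to 1.06; adjusted p = 0.00455). H2BC14 held 158, 177 and 153 normalised counts in control and 314, 290.3 and 235 with LDL (change 0.77; adjusted p = 0.0409). H3C2, among the most abundant, stood at 2215, 2106 and 1807 normalised counts in the control libraries and 3337, 2978 and 2976 in the LDL libraries, a change of 0.60 (adjusted p = 0.0271). The called changes spanned 0.58 to 0.81. Coding sequences of these genes are near-identical, so reads may be shared between them. The whole of H2AC16, 393 bases, lies inside the H2B gene H2BC15 on the same strand. H2AC16 was called and H2BC15 was not (limma adjusted p = 0.0848), and their reads may not be separable. The count of calls fell when single libraries were left out. Of the 54, 0 passed without control replicate 2, 2 without control replicate 3, 3 without LDL replicate 1 and 2 without LDL replicate 2. Over all genes the calls fell too, to 16 higher and 2 lower without control replicate 2. Genes of DNA replication, which act in the same phase of the cell cycle, had a median of 0.02, with limma, edgeR and DESeq2 calling 0 of 31 and 1 in each direction at an unadjusted p under 0.05.

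**Figure D4:**
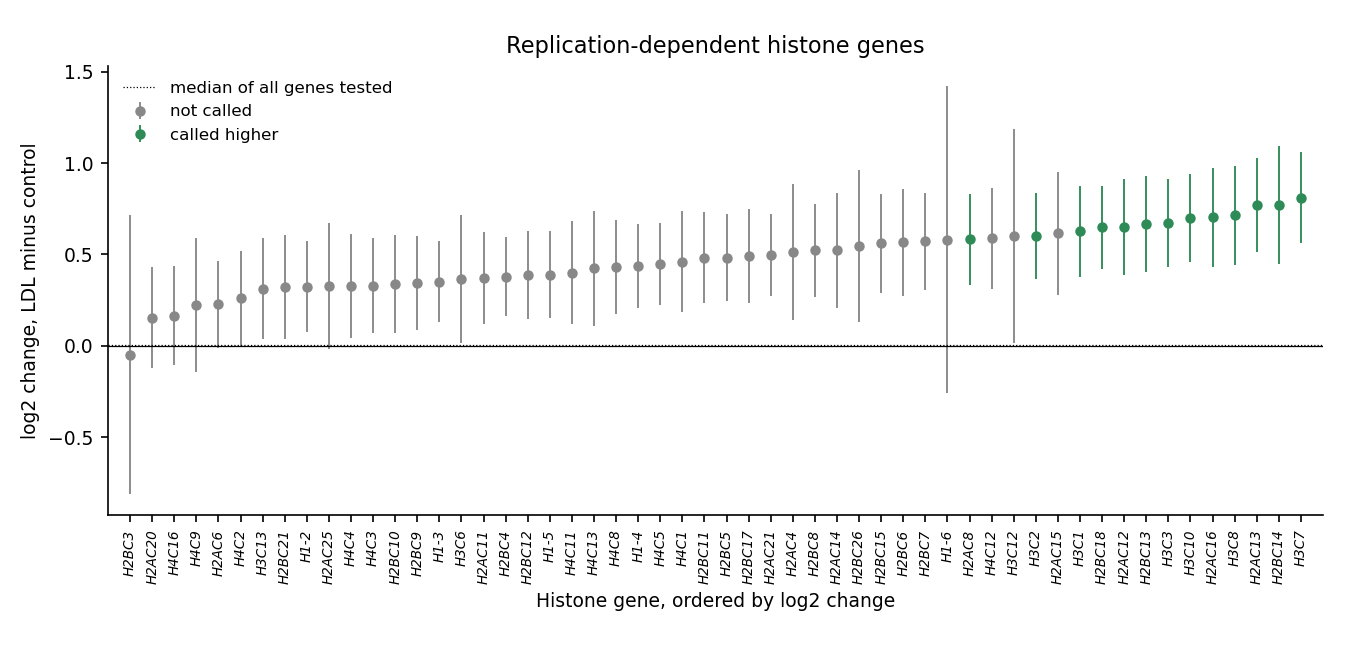
Log2 change (LDL minus control) with its 95% interval for the 54 replication-dependent histone genes tested, in order of size; green marks the 13 called higher. All but 1 lie above 0, and the uncalled genes run into the called ones without a gap.

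Among the genes called, the largest falls were in the mitochondrial ribosomal RNAs, which serve the ribosome inside mitochondria. MT-RNR1, the small-subunit RNA, was at 619, 1569.5 and 692 normalised counts in control and 138, 82.1 and 39.2 with LDL, and fell by 3.50 on the log2 scale (95% interval -4.29 to -2.71; adjusted p = 0.000239). MT-RNR2, the large-subunit RNA, held 1119, 1902 and 1034 normalised counts in control and 307, 176 and 86.2 with LDL, and fell by 2.95 (95% interval -3.66 to -2.25; adjusted p = 0.000359). All LDL libraries lay below all control libraries, and the replicates were widely spread within each group. The 13 mitochondrially encoded messenger RNAs did not fall with them: limma, edgeR and DESeq2 called 0, 5 were higher and 0 lower at an unadjusted p under 0.05, and the median was 0.36. MT-CO1, a subunit of cytochrome oxidase, was at 3008, 3522 and 3677 normalised counts in the control libraries and 4281, 4643 and 3219 in the LDL libraries. MT-ATP6, of the ATP synthase, showed overlapping groups at 45.9, 84.5 and 27.8 normalised counts in control and 124, 160.4 and 52.6 with LDL. MT-RNR2 took 0.0138%, 0.0240% and 0.0130% of reads in control replicates 1 to 3 and 0.0037%, 0.0021% and 0.00099% in LDL replicates 1 to 3. Its control mean was 1352 normalised counts, below that of MT-CO1 at 3402. Removal of ribosomal RNA before sequencing is not described in the labels, and the part of library preparation in these falls was not tested.

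Metabolic genes made up 6 further calls, grouped by role after their values were seen. UPP1, which splits uridine for salvage, was at 713, 616 and 634 normalised counts in control and 1343, 1159 and 1283 with LDL (change 0.95; adjusted p = 0.000625). KYNU, an enzyme of tryptophan breakdown, held 99.0, 98.7 and 108 normalised counts in the control libraries and 201, 212 and 233 in the LDL libraries (change 1.07; adjusted p = 0.00435). GOT1, the cytosolic aspartate aminotransferase, rose by 0.56, ABHD4, a lipase acting on N-acyl phospholipids, by 0.52, and NOCT, the circadian phosphatase nocturnin, by 0.69. The NOCT gene overlaps ELF2 on the opposite strand by 17828 bases. TXNIP, the inhibitor of thioredoxin that also responds to glucose, stood at 2248, 2736 and 2365 normalised counts in control and 1743, 1616 and 1606 with LDL and fell by 0.56 (adjusted p = 0.035).

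Surface and signalling genes gave 7 calls. CLDN1, a tight junction protein, was at 103, 131 and 99.7 normalised counts in control and 199, 212 and 218 with LDL (change 0.92; adjusted p = 0.02), the sole call among 16 junction genes. ESM1, a proteoglycan of activated endothelium, held 581, 514 and 522 normalised counts in the control libraries and 768, 856 and 977 in the LDL libraries (change 0.68; adjusted p = 0.0211). GPRC5A, an orphan receptor, stood at 963, 1321 and 1175 normalised counts in control and 2275, 2074 and 1866 with LDL (change 0.85; adjusted p = 0.00568). RND3, an atypical small GTPase, rose by 0.65, and ARRDC3, an arrestin-like adaptor, by 0.64. FOSL1, a subunit of AP-1, was at 1422, 1488 and 1251 normalised counts in control and 2148, 2053 and 2112 with LDL (change 0.60; adjusted p = 0.0182). PCDH12, a protocadherin of endothelial cells, held 638, 623 and 667 normalised counts in the control libraries and 411, 443 and 436 in the LDL libraries and fell by 0.58 (adjusted p = 0.035), and its gene overlaps RNF14 on the opposite strand by 11414 bases.

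FOSL1 was the 1 call among 20 immediate early genes, all of which had changes above 0 (median 0.31), and 7 of the 20 had LDL libraries all above control, against 7.94% of all genes. FOS was at 747, 1572 and 2045 normalised counts in control and 2939.7, 2209.8 and 1606 with LDL, and FOSB at 878, 1775 and 2338 normalised counts in control and 3724, 2586 and 1907 with LDL. The groups overlapped for both, with LDL replicate 3 below control replicate 3. Control replicate 1 and LDL replicate 3 were the lowest of their groups. Those libraries had the highest RN7SL1 shares, at 12.7% and 14.4%. A fit with RN7SL1 level as a covariate called 365 genes higher and 158 lower, MYC among those called. The cause of that shift was not tested. MYC did not overlap, at 2986, 3311 and 2549 normalised counts in the control libraries and 3986, 4145 and 4061 in the LDL libraries (adjusted p = 0.12).

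Genes that define the endothelium gave 0 calls by limma among 21 tested, with 0 higher and 5 lower at an unadjusted p under 0.05, 0 by edgeR and 1 lower by DESeq2. Their median was -0.09. With sample quality weights, PECAM1, SOX18 and KDR were among those that passed. With RN7SL1 level as a covariate, PECAM1 and SOX18 were. KLF2 and THBD, given below, passed in both of these settings. CDH5, the cadherin of endothelial junctions, was at 7079, 6419.5 and 6505 normalised counts in control and 4933, 5965 and 6486 with LDL, and NOS3, the endothelial nitric oxide synthase, at 1079, 1272 and 1349 normalised counts in control and 1332, 1282 and 1121 with LDL, both with overlapping groups. SOX18, a factor of vascular identity, stood at 364, 443 and 366 normalised counts in the control libraries and 307, 214 and 176 in the LDL libraries, with LDL below control throughout (adjusted p = 0.0937). VWF, which tethers platelets to injured walls, was at 556, 614 and 702 normalised counts in control and 557, 539 and 422 with LDL (adjusted p = 0.473). KLF2, a shear-responsive factor, held 1328, 2098 and 2076 normalised counts in control and 3263, 2661 and 1912 with LDL (adjusted p = 0.395), and EDN1, the vasoconstrictor endothelin, 263, 302 and 272 normalised counts in the control libraries and 249, 233 and 215 in the LDL libraries (adjusted p = 0.54). THBD, the thrombin receptor thrombomodulin, was at 4339.7, 5649.6 and 5446 normalised counts in control and 8562, 7479 and 6519.9 with LDL (adjusted p = 0.124).

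The study's title names cell mechanics, and genes of the cytoskeleton were examined for it. Of 50 tested actin and actomyosin genes, limma, edgeR and DESeq2 called 0, with 3 higher and 0 lower at an unadjusted p under 0.05. Among members followed across settings, ACTB and RDX passed with RN7SL1 level as a covariate, and FLNC with sample quality weights. The list's median was -0.01, and its changes ran from -0.34 to 0.34. ACTB, cytoplasmic actin, was at 32076, 38942 and 36412 normalised counts in control and 50362, 43613 and 40364 with LDL (log2 change 0.32; adjusted p = 0.495), groups that did not overlap. VIM, the intermediate filament vimentin, held 40638, 35741 and 30808 normalised counts in the control libraries and 30613, 37109.9 and 42418 in the LDL libraries (log2 change 0.04; interval -0.31 to 0.38), and its groups overlapped. CAV1, of the caveolae, had overlapping groups as well, at 8899.8, 9703 and 8120.2 normalised counts in control and 9019, 8356 and 8758 with LDL. CCN1 and CCN2, targets of YAP, had log2 changes of 0.18 (interval -0.12 to 0.48) and 0.22 (interval -0.05 to 0.49). Extracellular matrix genes gave 0 calls by limma and edgeR and 1 higher by DESeq2 among 21, with 1 higher and 2 lower at an unadjusted p under 0.05. Of the 21, 18 had changes below 0 (median -0.16).

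**Figure D5:**
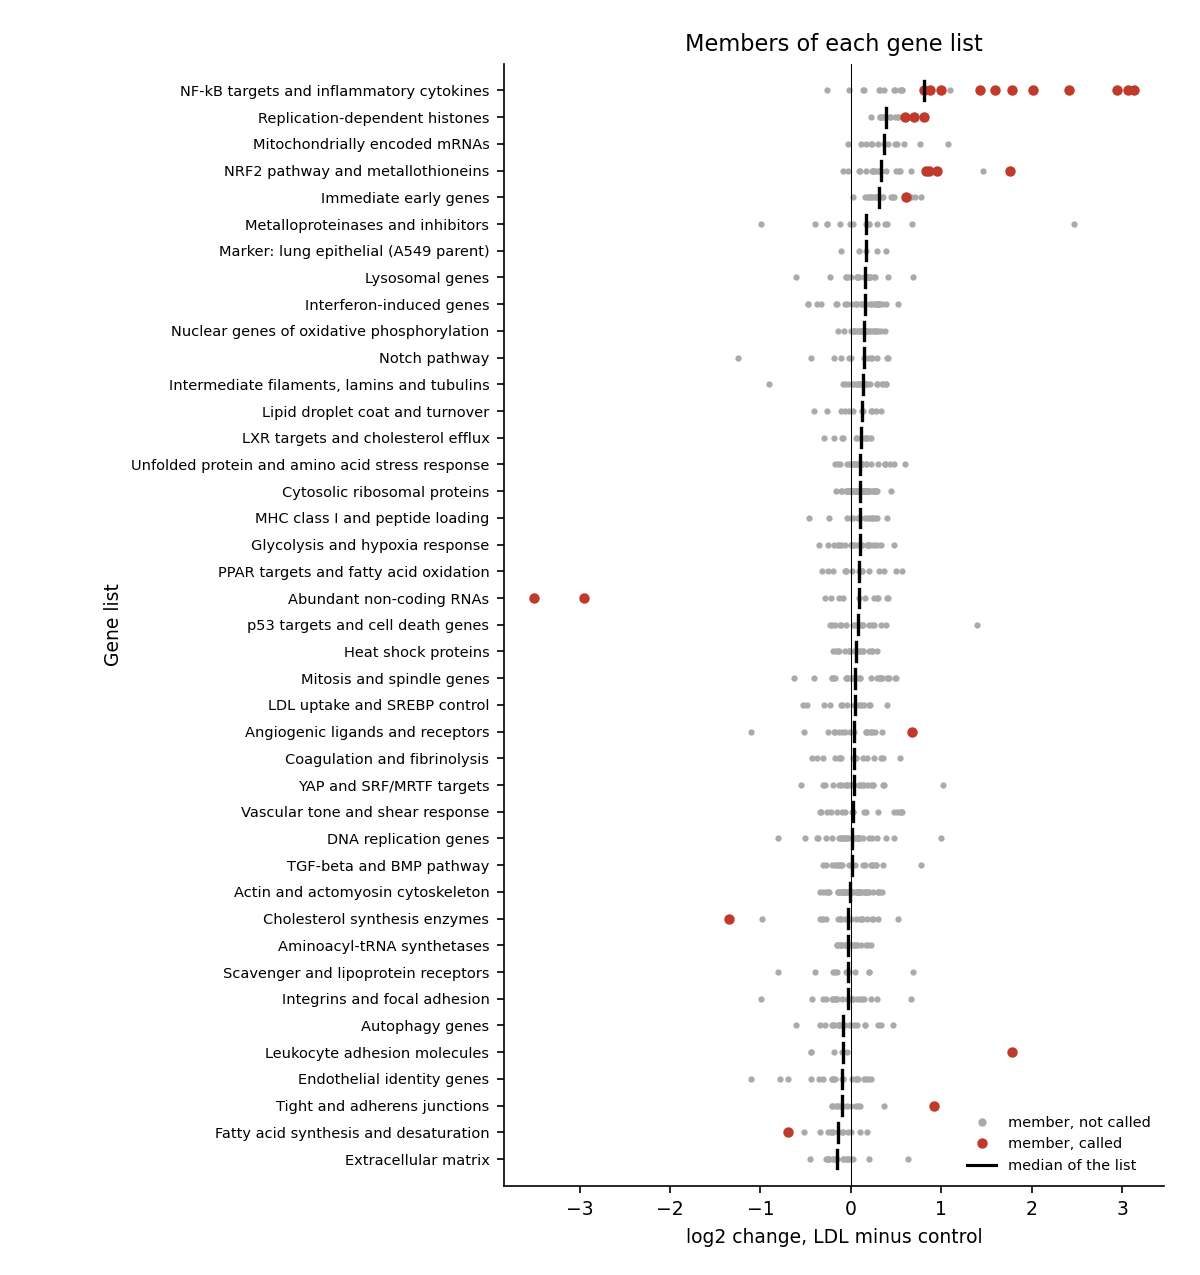
Log2 change (LDL minus control) of the tested members of gene lists with at least 5 tested genes, ordered by the list median (black bar); red points passed the adjusted p of 0.05. The histone list by symbol is not drawn here, and a shorter histone list of 17 tested genes is. The NF-kB list has 11 red points and a median of 0.81, and most list medians lie near 0.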

How the data were processed

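Bulk total RNA of EA.hy926 cells was analysed in 6 libraries, 3 per group, of a table of 12. RNA was isolated with the SKYEasy kit and libraries were made with the VAHTS Universal V8 kit, per the labels' protocols. Per the submitters' processing notes, the build was GRCh38 and the tools included STAR, HTSeq, DESeq2, FastQC and MultiQC. Versions, annotation, strand setting and filters were not given there. The unit the authors deposited is a signal: counts of reads per gene after division by each library's size factor. Checked on the values, 100% were whole multiples of a library's smallest value within 0.001, so whole reads were recovered. On them edgeR 4.0.16 called 53 genes. Chi-square tests of the reads, over genes of 20 or more, gave 3.577 to 18.51 per degree of freedom between replicates, more than sampling noise, and each was kept as its own sample. They are labelled biological replicates with no word on separate dishes, so the p-values reflect a spread that may be technical.

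The test was limma 3.58.1 (R 4.3.3) with an intensity trend on log2 of the deposited value plus 1, two-sided, adjusted after Benjamini and Hochberg over 14015 genes at 0.05. Fold changes are on that scale, which understates changes of low genes. An exact permutation test of 3 against 3 cannot go below 0.1. The procedure was tested on simulated data. Intervals are at 95%, and exact intervals on reads cover counting error only. Symbols came from a list of gene names, matching 20104 of 20117 identifiers, and coordinates from GENCODE 29, matching 19232. Named genes were the 12 largest rises and falls with a mean of at least 50 and no overlap, the 6 largest with a mean of at least 1000, a panel of 26 and up to 4 per list. C3, BIRC3, CXCL1 and the histone genes outside these, and others marked in the text, were chosen after their values were seen. The members and the lists were chosen with earlier results of these data known. Some genes and a gene list met by these rules are not reported here. The alternatives were 20 other settings, DESeq2 1.42.0 among them.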

Additional observations from a re-analysis of the deposited data

How the results depend on the processing

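The 48 calls were 41 higher and 7 lower. Counts within 1.5 times of these came with a pseudocount of 0.5 or 10, with either filter on low values, with TMM or quantile scaling and with edgeR. DESeq2 gave 87 and 20, sample quality weights 408 and 294, all 12 libraries in the fit 106 and 51, and RN7SL1 as a covariate 365 and 158. Including genes listed at 0 gave 124 and 161. Limma without the trend gave 7 and 0, with 1223 genes at an unadjusted p under 0.05. Leaving out single libraries gave 15 to 92 higher and 2 to 17 lower. The fit with a replicate block gave 12 and 2. Same-numbered libraries correlated at -0.33, 0.013 and -0.30 in their deviations from the group means, and control replicate 1 with LDL replicate 3 at 0.39. With 3 libraries per group these values cannot decide whether the numbers pair the samples. Shared with the 48 calls were 47 of the edgeR calls, 48 of the DESeq2 calls, 44 with quantile scaling and 14 with the block. The median change of all genes ran from -0.0175 to 0.0212 without single libraries. No called gene changed direction in any setting.

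NF-kB list members called numbered 11, but 5 without the trend, 7 with the replicate block and 7 to 11 without single libraries. NRF2 list members called numbered 4, but 1 without the trend, 10 with sample weights, 8 with all 12 libraries, 10 with the RN7SL1 covariate and 3 to 6 without single libraries. Replication-dependent histone genes called numbered 13, but 0 without the trend or with the replicate block, 23 with DESeq2, 35 with sample weights, 22 with all 12 libraries, 35 with the RN7SL1 covariate and 0 to 15 without single libraries. At an unadjusted p under 0.05 there were 47 of the 54. Of 164 named genes that were not called, 66 passed with sample weights and 66 with the RN7SL1 covariate. The causes of these shifts were not tested. LDL replicate 2, at 4.32 M reads, limits low genes most, at 1.91 normalised counts per read.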

Other observations

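Metalloproteinase genes gave 0 calls by limma among 15 tested, with 4 higher and 3 lower at an unadjusted p under 0.05, 1 higher by edgeR and 0 by DESeq2. MMP9, a gelatinase, was scarce in control medium, at 4.08, 2.19 and 1.16 normalised counts in control and 22.5, 15.3 and 14.6 with LDL, and its groups did not overlap (adjusted p = 0.0745). MMP1, the interstitial collagenase, was among the abundant transcripts, at 31419, 29989.6 and 33268 normalised counts in the control libraries and 35336, 33769 and 37161 in the LDL libraries (adjusted p = 0.709). Lysosomal genes gave 0 calls by limma, edgeR and DESeq2 among 24, of which 10 had LDL libraries all above control (7.94% of all genes did) and 4 were higher at an unadjusted p under 0.05 (median 0.16). Nuclear genes of oxidative phosphorylation had 28 of 30 changes above 0 (median 0.15), and limma, edgeR and DESeq2 called 0, with 3 higher at an unadjusted p under 0.05. SRXN1, which repairs peroxiredoxins, was at 9.18, 7.68 and 11.6 normalised counts in control and 34.4, 38.2 and 15.7 with LDL (adjusted p = 0.215).

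Genes listed at 0 in a whole group stayed outside the test. With a mean of at least 10 in LDL libraries, 44 were listed at 0 in control, among them PRDX2 and NLRP3, and 143 were listed at 0 with LDL and reached that mean in control, among them C2, KCNJ11 and CSPG4, named after their values were seen. The highest such mean was 20.1 in LDL libraries and 34.9 in control libraries. No fold is given, since no source used here says whether such zeros are counts or the mark of a filter.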
